A study of Mus musculus with 9 samples.

Results

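The mouse genes that encode proteins also give rise to transcripts with no annotated coding sequence, and in the livers studied here these non-coding isoforms were deposited in the table of long non-coding RNA. An isoform was taken as a member where its Ensembl transcript lay in a gene that the protein-coding table also lists and its level reached 1 FPKM in at least 3 of the 9 libraries. FPKM, the number of fragments scaled to the transcript's length and to the library's total, is a level per length that can be compared between transcripts. Of 35691 such isoforms, among 54836 transcripts in the table, 3265 isoforms of 2205 genes met the rule, after 10 isoforms of Gclc, Gclm and Chka were set aside, and 32416 stayed under the level. The members were thus chosen by their FPKM in the same 9 libraries, so that level is a description and not a result.

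The livers came from WT C57 BL6 mice of 8 weeks and 20 g on average. The control group received saline. The APAP group received 500 mg/kg acetaminophen (APAP, paracetamol) by intraperitoneal injection and was sampled 6 h later, and the dmPGE2+APAP group received 300 μg/kg dmPGE2, an analogue of prostaglandin E2, 1 h before the same dose of APAP. Each group had 3 livers, and the columns taken as controls bear an undefined abbreviation, assigned because the others name both treated groups. Libraries were made from total RNA after removal of ribosomal RNA. In such RNA, reads of a precursor that has not yet been spliced and reads of an isoform that keeps an intron cannot be told apart. The protocol marks the strand, but whether the quantification used it is not given in the sources used here, so isoforms that overlap another gene on either strand are uncertain. In bulk liver, fewer cells of a type and less RNA per cell cannot be told apart either, and the p-values below measure the spread between these livers.

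A gene's precursor RNA can be spliced in several ways, and some of the products have no complete reading frame. A retained-intron isoform keeps sequence that the coding transcript removes. A processed transcript is the annotation's name for any other spliced product without a coding sequence. An intron kept between coding exons usually brings a stop codon into the reading frame, and such RNAs are commonly held in the nucleus or removed in the cytoplasm by nonsense-mediated decay. Retention is known to change with stress, and genes of RNA-processing factors often use it to set their own level. APAP at overdose is turned by cytochrome P450 enzymes into a reactive metabolite that depletes glutathione and kills hepatocytes around the central vein, with strong induction of stress genes in the surviving cells.

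The annotation (GENCODE M21, GRCm38) calls 2442 of the members (74.8%) retained introns and 819 (25.1%) processed transcripts, where 60.0% of all 35691 isoforms are retained introns. A further 3 members are not in that annotation and 1 is listed there as coding. The match by transcript gave the same coordinates for 3260 of the 3265. Retained-intron members had a median of 4 exons and a median length of 1288 bases (quartiles 731 and 2753), and processed transcripts had a median of 4 exons and 791 bases. Most retained-intron members do not hold a complete intron: 878 of 2442 (36.0%) hold a whole intron of a coding transcript inside one of their exons, while 1477 (60.5%) only begin or end inside one. The introns held whole are short. Their median over 1352 distinct introns was 296 bases (quartiles 126 and 773), against 1231 bases (quartiles 403 and 3111) over the 32823 introns of the same genes' coding transcripts. Of the 1352, 1310 (96.9%) begin with GT and end with AG. Of the 1231 that lie between coding exons, 1120 (91.0%) hold a stop codon in the frame of the coding transcript.

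The introns of 5 members described below show what such an isoform adds to its message. Each is given 5′ to 3′ on the gene's strand from the GENCODE M21 transcript sequence. Capitals mark the first 2 and last 2 bases of the intron and the first stop codon in the frame that enters from the coding exon before it. The intron of Tpt1-206, an isoform of the translationally controlled tumour protein gene whose share of the gene rose after APAP, lies at chr14:75846394-75846693 (+ strand) and has 300 bases. That of Gadd45a-203, from the p53 target and DNA-damage sensor that rose with its gene, lies at chr6:67036916-67037009 (− strand) and has 94 bases with a GC content of 74.5%. The one in Plk3-202, from the stress-induced polo-like kinase whose gene outran the isoform, lies at chr4:117130090-117130242 (− strand, 153 bases). Rps2-204 and Alas1-209 hold introns at chr17:24720732-24720968 (+ strand, 237 bases) and chr9:106241339-106241635 (− strand, 297 bases), and both appear in the comparison of dmPGE2+APAP with APAP.
Tpt1-206: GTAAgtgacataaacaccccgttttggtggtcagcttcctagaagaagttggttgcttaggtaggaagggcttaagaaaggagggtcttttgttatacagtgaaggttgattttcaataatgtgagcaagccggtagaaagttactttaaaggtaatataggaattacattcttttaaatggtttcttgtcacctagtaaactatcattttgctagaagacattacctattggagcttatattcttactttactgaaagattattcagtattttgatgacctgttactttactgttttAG
Gadd45a-203: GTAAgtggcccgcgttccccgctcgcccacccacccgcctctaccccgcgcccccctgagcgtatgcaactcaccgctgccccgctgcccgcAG
Plk3-202: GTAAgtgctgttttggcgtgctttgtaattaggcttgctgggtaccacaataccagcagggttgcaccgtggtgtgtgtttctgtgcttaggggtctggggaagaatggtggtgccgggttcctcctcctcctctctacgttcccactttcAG
Rps2-204: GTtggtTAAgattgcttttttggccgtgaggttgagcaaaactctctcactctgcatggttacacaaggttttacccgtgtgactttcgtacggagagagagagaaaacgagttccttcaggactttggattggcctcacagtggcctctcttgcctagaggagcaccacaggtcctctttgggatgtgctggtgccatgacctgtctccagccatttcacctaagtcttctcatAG
Alas1-209: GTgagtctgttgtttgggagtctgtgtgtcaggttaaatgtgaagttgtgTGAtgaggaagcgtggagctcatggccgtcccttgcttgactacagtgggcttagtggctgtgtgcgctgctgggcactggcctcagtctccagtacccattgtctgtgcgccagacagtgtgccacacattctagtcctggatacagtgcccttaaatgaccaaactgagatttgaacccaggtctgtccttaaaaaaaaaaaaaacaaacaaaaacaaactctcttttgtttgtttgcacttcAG
In Tpt1-206, Gadd45a-203 and Plk3-202 the stop codon TAA lies in the 5′ splice site itself and begins at base 2 of the intron, whose first bases read GTAA. The stop TAA of Rps2-204 begins at base 7 and the stop TGA of Alas1-209 at base 51. Positions are counted from 1 at the intron's first base.

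In the whole series, defining hepatocyte genes were abundant in every library, with summed levels of 30931 to 34279 FPKM in the controls, 37601 to 44080 FPKM after APAP and 38387 to 42850 FPKM after dmPGE2 and APAP, and 0 of 5 were called in APAP against control. Summed neutrophil markers ran from 1.79 to 6.25 FPKM in the controls, from 8.05 to 37.8 FPKM after APAP and from 4.55 to 10.1 FPKM after dmPGE2 and APAP, with Camp listed at 0. Of their 3 tested genes 2 passed the test upward, as did 5 of 6 platelet and erythroid genes, whose sums were 210.1 to 301 FPKM, 313 to 756 FPKM and 221 to 238 FPKM. Their part in the isoform results was not tested.

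Most members were low: the mean FPKM over the 9 libraries had a median of 1.49, with quartiles of 1.04 and 2.76, and 5% of members exceeded 10.1 FPKM. A member's level was never above its gene's in any library (0 of 3265), so the deposited gene level contains the isoform, and the ratio of both is the isoform's share of its gene. The mean share had a median of 9.40% (quartiles 3.79% and 18.6%), and 5% of members made up over 42.8% of their gene. The members with the highest level, 1 per gene, came from genes of secreted plasma proteins and abundant enzymes. They were Apoc3-205 (an apolipoprotein of triglyceride-rich particles), Mug1-202 (a murinoglobulin protease inhibitor), Serpinc1-206 (antithrombin), Scp2-203 (sterol carrier protein), Itih3-204 (an inter-alpha-trypsin inhibitor chain), Hpd-206 (a tyrosine-degrading dioxygenase), Fn1-202 (fibronectin) and Gstp2-204 (a glutathione S-transferase). Apoc3-205 had 402, 454 and 489 FPKM in the controls, 479, 512 and 426 FPKM after APAP and 522, 463 and 488 FPKM after dmPGE2 and APAP. The 3 groups overlapped, and its share was 37.6, 40.7 and 37.5% in the controls, 39.3, 37.7 and 42.2% after APAP and 39.7, 41.1 and 38.4% after dmPGE2 and APAP. None of these 8 isoforms was called in any comparison. Mug1 and Gstp2 belong to families of near-identical genes, so reads may have been divided among copies.

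The members' share of their genes was lowest in the controls. Its median over the 3265 isoforms was 7.01, 7.41 and 6.53% in the control livers, 8.58, 8.18 and 9.27% after APAP, and 8.76, 8.55 and 8.06% after dmPGE2 and APAP. The control livers did not overlap either treated group, and both treated groups overlapped each other. The exact two-sided permutation test cannot go below p = 0.10 with 3 against 3, and the level rule admits isoforms that are high in only some groups. Over all genes with any non-coding isoform signal, a measure the rule did not choose, the isoforms' summed share had a median of 11, 10.9 and 9.79% in the controls, 13.3, 11.8 and 15.2% after APAP, and 12.5, 12.4 and 12.2% after dmPGE2 and APAP. The ranges of the controls and of either treated group did not overlap there either.

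**Figure D1:**
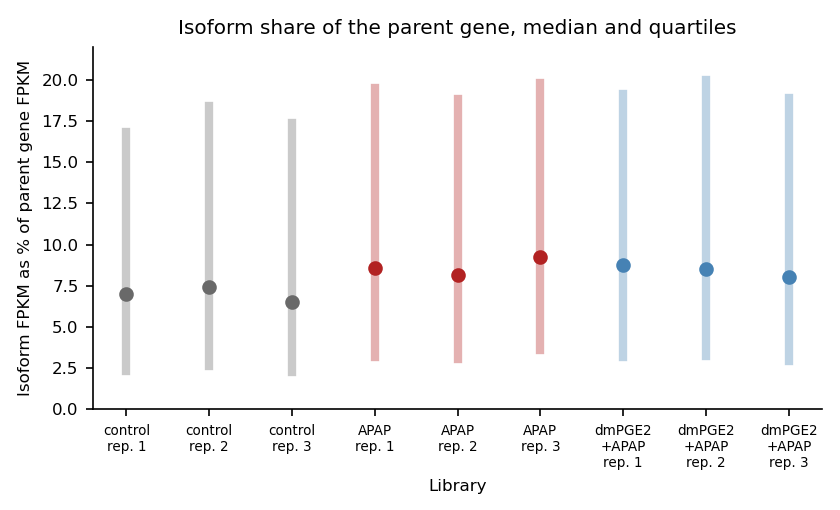
Share of the parent gene's FPKM held by each member, by library. The vertical axis is the share in percent, dots are medians over the 3265 isoforms and bars run between quartiles; the control medians (6.53 to 7.41%) lie under those of all 6 treated livers (8.06 to 9.27%).

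APAP against saline asks which isoforms the overdose moved at 6 h. Isoforms of Hmox1, Gadd45a, Fos, Arid5a and Ifrd1 were among those higher after APAP. Lower isoforms included those of the clock-output genes Dbp and Tef, the P450 gene Cyp3a11 and the glutaminase gene Gls2. In limma, with p-values adjusted by Benjamini and Hochberg over the 22984 transcripts tested, 330 of the 3265 members passed an adjusted p of 0.05: 266 higher and 64 lower. That is 8.15% of members higher and 1.96% lower, where 2.73% of all tested transcripts were higher, 0.931% lower and 3.66% either. Other transcripts of the same table that met the same level rule had shares close to the members': of 421, 34 (8.08%) were higher and 11 (2.61%) lower. Differences are those between group means of the log2 values of rescaled FPKM + 0.1, a scale that understates the change of isoforms near 0. Their median was 0.17 over the members and 0.11 over all transcripts tested, and centring each library on its median moved the latter to −0.02. The 94 members that reached 1 FPKM in 1 group alone were bound to differ by the level rule. Without them, 249 of 3171 members (7.85%) were higher and 32 (1.01%) lower. Of the 94, 57 reached the level in the controls alone and 29 after APAP alone, so leaving them out removes falls by construction. The 0.931% of all transcripts covers levels from 0.1 FPKM without such a removal, so the 2 lower shares are not like measures. The 3171 still include isoforms that reached the level in both treated groups but not in the controls. The rule favours a rise in these, so the split into higher and lower remains a description. It likewise favours a fall in isoforms that met it through the controls. The same limit holds for each isoform named below whose controls, or whose APAP livers, all lay under 1 FPKM. Leaving out APAP replicate 1 left 76 calls, the lowest count of the 9 single-library exclusions. Of the 73 called isoforms in the naming rule, 25 held in all 9 exclusions and 48 were lost in at least 1, and none changed direction under any alternative tried.

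The isoforms were then set against their parent genes, tested with the same model on the protein-coding table of 11557 genes. The library factors of that fit came from the genes alone, and those of the isoform fit from transcripts and genes together. For APAP replicate 3 they were 0.999 and 1.11. Changes of isoform and gene are therefore on slightly unlike scales, and only the test of their difference uses the same factor for both. After APAP, 324 of the 2205 parents rose and 133 fell, against 11.2% and 9.73% (20.9% either) of all genes tested. Without rescaling of the libraries the parents split into 248 higher and 302 lower, and the median over all genes moved from −0.02 to −0.14. For 188 isoforms of 132 genes both the isoform and the gene rose, with median log2 differences of 1.97 and 1.20. For 78 isoforms of 63 genes the isoform rose and the gene was not called, with medians of 1.71 and 0.24. In the other direction, 26 isoforms fell with their gene and 37 fell where the gene was not called (medians −2.11 and −0.17). Among the 3171 members that reached the level in at least 2 groups these counts were 175, 74, 15 and 17. A further 382 isoforms were not called where the gene rose, and 148 where it fell. Across the 3265 members, Pearson's r between the isoform's and the parent's log2 difference was 0.58. This is a description over isoforms that are part of the gene's own level and share its libraries.

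**Figure D2:**
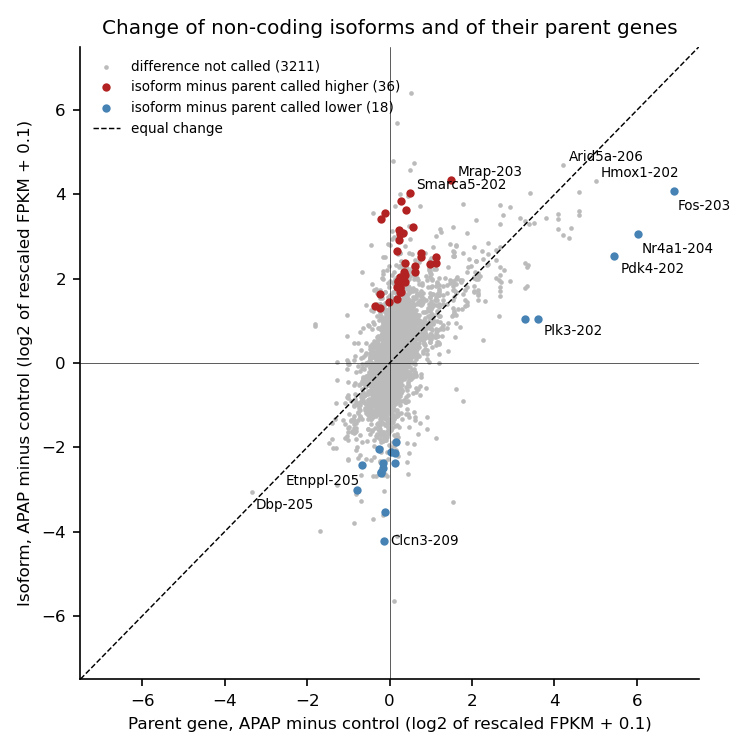
Log2 difference, APAP against control, of each of 3265 isoforms (vertical) and of its parent gene (horizontal). The axes were rescaled with different library factors, so the line of equal change is approximate. The dashed line marks equal change; 36 isoforms whose difference from the parent was called higher are red and 18 called lower are blue, and the points spread further along the isoform axis than along the gene axis, with Pearson's r of 0.58.

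A single member lay on the opposite side of its gene, Igfbp2-203, an isoform of the gene for an insulin-like growth factor binding protein. It passed the level rule through the controls alone, so its lower level in the treated groups follows from the rule and is given as values without a test. It had 2.26, 2.28 and 2.5 FPKM in the controls, 0.511, 0.657 and 0.906 FPKM after APAP and 0.349, 0.962 and 0.968 FPKM after dmPGE2 and APAP. The gene had 382, 375 and 226 FPKM in the controls, 493, 488 and 435 FPKM after APAP and 419, 461 and 392 FPKM after dmPGE2 and APAP. Among members that reached the level in at least 2 groups, 0 were called against their gene's direction.

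Several isoforms rose along with their gene. Of these, Arid5a-206 and Hmox1-202 reached 1 FPKM in treated livers only, so the level rule favoured their rise. Their p-values are therefore no independent support. Arid5a-206 (chr1:36307754-36319887, + strand) is a retained-intron isoform of the gene for an RNA-binding protein that stabilises inflammatory messages. It had 0.0406, 0.0365 and 0.00478 FPKM in the controls, 5.27, 1.83 and 3.52 FPKM after APAP and 5.33, 4.1 and 3.57 FPKM after dmPGE2 and APAP. All 6 treated livers lay above the 3 controls. The log2 difference for APAP was 4.7 ± 0.36 (SE; limma adjusted p = 0.000658), and the call held in all 9 single-library exclusions. The gene's own log2 difference was 4.2. Hmox1-202 (chr8:75096844-75099041, + strand), from the gene of heme oxygenase, the heme-degrading enzyme of the oxidative stress response, had 0.0391, 0.193 and 0.175 FPKM in the controls, 5.76, 4.24 and 3.55 FPKM after APAP and 4.3, 4.6 and 2.81 FPKM after dmPGE2 and APAP. Every treated liver was higher than every control. Its difference was 4.31 ± 0.37 (SE; limma adjusted p = 0.00105) and its gene's 5.01, and this call too held in every exclusion. Its share of the gene was 0.317, 1.8 and 2.3% in the controls, 1.67, 1.69 and 1.13% after APAP and 2.0, 1.81 and 1.81% after dmPGE2 and APAP. Those shares overlap between the groups.

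The rule for naming the largest rises also took isoforms listed at 0 in the controls. Pxn-210, from the gene of the focal adhesion protein paxillin, was listed at 0 in all 3 controls, at 8.53, 8.74 and 8.5 FPKM after APAP and at 8.79, 0 and 0 FPKM after dmPGE2 and APAP. Ube4b-209, from a ubiquitin-chain ligase gene, was listed at 0 in the controls, with 5.34, 4.51 and 5.78 FPKM after APAP and 3.88, 0 and 0 FPKM after dmPGE2 and APAP. For both, replicate 1 was the only dmPGE2+APAP liver above 0. An exact 0 can be a failed estimate, so no fold is given. The call of Pxn-210 for its level was lost without control replicates 1, 2 or 3 or APAP replicates 1, 2 or 3 (limma adjusted p up to 0.119). Ube4b-209 lost the call for its level without control replicates 1, 2 or 3 or APAP replicates 1, 2 or 3, with a limma adjusted p of up to 0.102.

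Gadd45a, a growth-arrest gene induced by DNA damage, had 3 retained-intron members that rose together. It was singled out after its values were seen, as were the other genes described by several isoforms (Tpt1, Picalm, Txnrd1, Ifrd1, Mat2a, Pck1, Clk1 and Srsf5). Gadd45a-203, whose intron is printed above, had 0.0247, 0.150 and 0.134 FPKM in the controls, 2.59, 1.66 and 2.27 FPKM after APAP and 2.29, 2.23 and 1.43 FPKM after dmPGE2 and APAP. The control livers were all below the treated ones. As this isoform reached 1 FPKM in treated livers only, the level rule favoured its rise. The log2 differences were 3.6 for Gadd45a-202, 3.5 for Gadd45a-203 and 4.05 for Gadd45a-204, beside 4.6 for the gene. None of the 3 differed from the gene by a called amount. Gadd45a-204 was no longer called for its level without APAP replicate 1 (limma adjusted p up to 0.0561). Ifrd1, the gene of an interferon-related regulator of transcription, behaved in the same way: Ifrd1-207, Ifrd1-208 and Ifrd1-210 rose by 3.18, 3.55 and 3.42, and the gene by 4.1. Without control replicate 1 or APAP replicates 1 or 3, Ifrd1-210 was no longer called for its level, with a limma adjusted p of up to 0.0606. Of 693 genes with at least 2 members, 48 had at least 2 that rose, 5 had at least 2 that fell, and 0 had 1 that rose and another that fell. In 21 of the 693 every member rose.

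Of the 6 isoforms with the largest falls, 4 came from genes that were not called. Dbp-205 and Clcn3-209 reached 1 FPKM in no APAP liver. The level rule favoured their falls, so their p-values are no independent support. Dbp-205 (chr7:45707104-45710028, + strand) belongs to the gene of a clock-output transcription factor that also fell. It had 3.57, 3.94 and 7.3 FPKM in the controls, 0.548, 0.428 and 0.468 FPKM after APAP and 0.564, 1.74 and 1.31 FPKM after dmPGE2 and APAP. The 3 controls were above the 6 treated livers. Isoform and gene fell together, by 3.07 and 3.35 on the log2 scale, with limma adjusted p = 0.00688 for the isoform and no call lost in any exclusion. Clcn3-209, a processed transcript of an intracellular chloride-proton exchanger, had 3.76, 4.16 and 4.04 FPKM in the controls, 0.107, 0.0798 and 0.189 FPKM after APAP and 3.61, 0.442 and 3.14 FPKM after dmPGE2 and APAP. The APAP livers stood below all others, while 2 of the 3 livers given dmPGE2 before APAP lay near the controls. Its difference was −4.23 ± 0.64 (SE; limma adjusted p = 0.0112), and the gene's was −0.14.

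Dynlrb1-201, from a dynein light-chain gene, had 8.88, 12.2 and 13.3 FPKM in the controls, 0.00243, 0.00109 and 1.16 FPKM after APAP and 0.769, 0 and 0.0854 FPKM after dmPGE2 and APAP. Its controls were above every treated liver, and the log2 difference for APAP was −5.64 ± 0.99 (SE; limma adjusted p = 0.0186). The level rule favoured this fall and those of Slc39a7-202 and Cyp3a11-202 below, so their p-values are no independent support. The call of Dynlrb1-201 for its level was lost without control replicates 1, 2 or 3 or APAP replicates 1 or 2 (limma adjusted p up to 0.0696). Slc39a7-202, from a zinc transporter gene of the secretory pathway, had 7.46, 1.08 and 4.84 FPKM in the controls, 0.00549, 0.458 and 0.179 FPKM after APAP and 0.972, 1.51 and 2.87 FPKM after dmPGE2 and APAP, and its APAP livers were below its controls. The difference was −3.8 ± 0.78 (SE; limma adjusted p = 0.03). Slc39a7-202 lost the call for its level without control replicates 1 or 3 or APAP replicates 1 or 3, with a limma adjusted p of up to 0.0963. Cyp3a11-202, from a P450 gene of drug oxidation with close relatives in the genome, had 3.07, 4.25 and 1.31 FPKM in the controls, 0.192, 0.341 and 0.525 FPKM after APAP and 0.430, 1.47 and 0.908 FPKM after dmPGE2 and APAP. The APAP livers lay below the controls, with a difference of −2.66 ± 0.51 (SE; limma adjusted p = 0.0244). Cyp3a11-202 was no longer called for its level without control replicates 1 or 2 or APAP replicates 1, 2 or 3 (limma adjusted p up to 0.0853). Mcm10-209, from a replication-initiation gene, fell by 2.90 (limma adjusted p = 0.0242) as its gene fell by 1.28. Without control replicates 1, 2 or 3 or APAP replicates 2 or 3, Mcm10-209 was no longer called for its level, with a limma adjusted p of up to 0.0912.

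Where an isoform's share of its gene changed, the isoform and the gene moved by different amounts. This was tested as the log2 difference of the isoform minus that of its gene, over all 19312 transcripts with a tested parent. After APAP 54 members were called, 36 with a higher share and 18 with a lower one, and 35 and 11 without the members that reached the level in 1 group alone. That is 1.1% and 0.551% of members, against 0.285% and 0.228% (0.513% either) of all such transcripts. Those include transcripts from 0.1 FPKM, below the members' level, so level may bear on the gap, which was not tested. At the members' level only 3275 transcripts had a tested parent, nearly all of them members, so no comparison at the same level could be made. Centring each library on its median turned the split to 20 higher and 25 lower, since the median of all differences is 0.20, above the members' own 0.17, and becomes −0.03 after centring. Of the 36 with a higher share, 13 belonged to genes that rose and 23 to genes not called. Of the 18 with a lower share, 5 belonged to genes that rose, 1 to a gene that fell and 12 to genes not called.

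Isoforms that gained share came from genes of varied roles, among them Smarca5, Mrap, Tpt1, Txnrd1, Picalm and Sf3b1. Smarca5-202 (chr8:80705485-80739425, − strand), from the gene of a chromatin-remodelling ATPase, had 0.0328, 0.0200 and 0.0348 FPKM in the controls, 1.75, 1.95 and 2.51 FPKM after APAP and 1.87, 1.51 and 2.09 FPKM after dmPGE2 and APAP. Its share of the gene was 0.348, 0.225 and 0.396% in the controls, 15.5, 17.2 and 20% after APAP and 16.8, 15.1 and 19% after dmPGE2 and APAP. Every treated liver lay above every control on both scales. Its difference from the gene was 3.68 ± 0.24 (SE; limma adjusted p = 0.000412) while the gene rose by 0.49, and no single-library exclusion ended the call. Smarca5-202 reached 1 FPKM in treated livers only, as did Pomt1-204, Mrap-203, Mrpl33-202 and Itih3-202 below. The level rule favoured their gain, so their p-values are no independent support. Pomt1-204, from a protein O-mannosyltransferase gene, had 0.0427, 0 and 0.0714 FPKM in the controls, 1.73, 1.8 and 1.14 FPKM after APAP and 1.27, 2.09 and 1.74 FPKM after dmPGE2 and APAP, with a share of 0.989, 0 and 1.14% in the controls, 38.5, 34.5 and 25.8% after APAP and 27.2, 48 and 38% after dmPGE2 and APAP. The groups of controls and treated livers did not overlap, and the difference from the gene was 3.82 ± 0.34 (SE; limma adjusted p = 0.00232), again held in every exclusion.

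Mrap-203, from the gene of an accessory protein of melanocortin receptors, had 0.232, 0.278 and 0.106 FPKM in the controls, 8.51, 3.61 and 7.03 FPKM after APAP and 8.85, 2.51 and 2.25 FPKM after dmPGE2 and APAP. All treated livers were far above the controls, although they spread among themselves. The gene rose by 1.5 and the isoform's tested difference from it was 2.98 ± 0.26 (SE; limma adjusted p = 0.00232), with no call lost. Mrpl33-202, from a mitochondrial ribosomal protein gene, was listed at 0 in all 3 controls, and at 1.26, 0.590 and 1.32 FPKM after APAP and 0.534, 1.72 and 0.766 FPKM after dmPGE2 and APAP. Itih3-202 was likewise listed at 0 in every control, with 1.84, 0.549 and 2.46 FPKM and 1.78, 0.683 and 0.683 FPKM in the treated groups. No fold is given for these isoforms either.

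Tpt1, whose abundant protein binds tubulin and calcium, had 4 members, of which 3 gained share. Tpt1-206, the isoform whose intron is shown above, had 4.2, 4.36 and 4.41 FPKM in the controls, 17.5, 12 and 17 FPKM after APAP and 11.6, 10.5 and 8.01 FPKM after dmPGE2 and APAP. The controls were below all treated livers. The gene did not follow, with 0.25 ± 0.11 (SE; limma adjusted p = 0.131). The isoform's difference from it was 1.67 ± 0.21 (SE; limma adjusted p = 0.0104). The call of Tpt1-206 for its difference from the gene was lost without APAP replicates 1 or 3 (limma adjusted p up to 0.0553). The corresponding differences were 2.97 for Tpt1-203, 1.58 for Tpt1-208 and 1.58 for Tpt1-207, the last not called. Tpt1-203 lost the call for its difference from the gene without control replicates 1, 2 or 3, APAP replicates 1, 2 or 3 or dmPGE2+APAP replicate 2, with a limma adjusted p of up to 0.143. Tpt1-208 was no longer called for its difference from the gene without control replicates 1, 2 or 3, APAP replicates 1 or 3 or dmPGE2+APAP replicates 2 or 3 (limma adjusted p up to 0.144). Tpt1 has processed copies elsewhere in the genome, so its reads are uncertain.

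Picalm, the gene of a clathrin adaptor of endocytosis, had 4 retained-intron members that rose, 2 of them beyond their gene. Picalm-210 had 1.52, 1.97 and 1.41 FPKM in the controls, 9.58, 6.81 and 11.2 FPKM after APAP and 6.06, 8.42 and 7.81 FPKM after dmPGE2 and APAP. Its APAP livers lay above its controls. It rose by 2.38 and Picalm-203 by 2.53, beside 1.12 for the gene, and their differences from the gene were 1.41 ± 0.23 (SE; limma adjusted p = 0.0353) and 1.55 ± 0.24 (SE; limma adjusted p = 0.0282). Without control replicates 1, 2 or 3, APAP replicates 1 or 3 or dmPGE2+APAP replicates 2 or 3, Picalm-210 was no longer called for its difference from the gene, with a limma adjusted p of up to 0.132. The call of Picalm-203 for its difference from the gene was lost without control replicates 1, 2 or 3, APAP replicates 1 or 3 or dmPGE2+APAP replicate 2 (limma adjusted p up to 0.115).

 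Txnrd1, the thioredoxin reductase of the NRF2 response, had 3 members. Txnrd1-207 had 0.532, 0.512 and 0.350 FPKM in the controls, 4.37, 2.24 and 3.95 FPKM after APAP and 3.16, 1.66 and 1.27 FPKM after dmPGE2 and APAP, and every treated liver exceeded every control. It rose by 2.62, the gene by 0.77, and its tested difference from the gene was 1.99 ± 0.28 (SE; limma adjusted p = 0.0181). As Txnrd1-207 reached 1 FPKM in treated livers only, the level rule favoured its gain and the p-value is no independent support. Txnrd1-207 lost the call for its difference from the gene without control replicates 1 or 3 or APAP replicates 1 or 3, with a limma adjusted p of up to 0.0891. For Txnrd1-202 it was 1.9 ± 0.34 (SE; limma adjusted p = 0.0462). Txnrd1-202 was no longer called for its difference from the gene without control replicates 1 or 3, APAP replicates 1, 2 or 3 or dmPGE2+APAP replicates 2 or 3 (limma adjusted p up to 0.149).

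**Figure D3:**
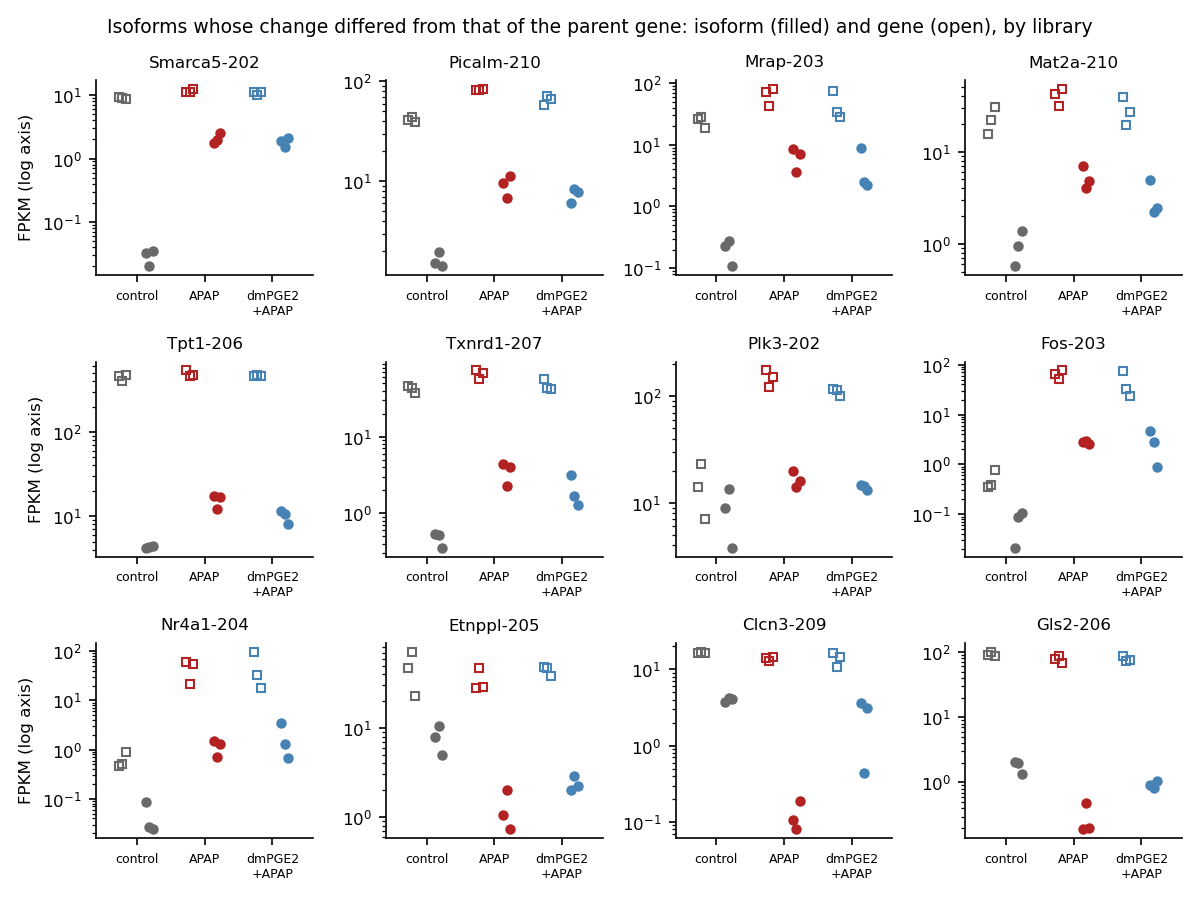
FPKM of 12 isoforms (filled circles) and their parent genes (open squares) in each of the 9 livers, on log axes. In the panels of Smarca5-202, Mrap-203 and Picalm-210 the circles of the APAP livers lie further above the controls than the squares do, in those of Plk3-202, Fos-203 and Nr4a1-204 the squares rise more than the circles, and in that of Clcn3-209 the APAP circles drop under nearly level squares.

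Isoforms that lost share included those of the strongly induced genes Plk3, Fos and Nr4a1 and of the metabolic genes Etnppl, Gls2, Cyp2e1 and Pck1. Plk3-202 (chr4:117128655-117133944, − strand), which keeps the 153-base intron shown above, had 8.93, 13.6 and 3.77 FPKM in the controls, 19.8, 14.1 and 16.1 FPKM after APAP and 14.8, 14.3 and 13.2 FPKM after dmPGE2 and APAP. The gene had 14.1, 22.9 and 7.03 FPKM in the controls, 174, 121 and 151 FPKM after APAP and 115, 115 and 99.4 FPKM after dmPGE2 and APAP. Its share of the gene was 63.3, 59.2 and 53.7% in the controls, 11.4, 11.7 and 10.6% after APAP and 12.8, 12.4 and 13.2% after dmPGE2 and APAP. On this scale the controls were far above all treated livers. The difference from the gene was −2.39 ± 0.16 (SE; limma adjusted p = 0.000412), held in every exclusion, while the isoform's own level was not called (1.06 ± 0.41 SE, limma adjusted p = 0.206). Fos, an immediate early transcription factor, rose by 6.89, and Fos-203 by 4.08, with a tested difference from the gene of −2.67 ± 0.35 (SE; limma adjusted p = 0.0133). Without APAP replicates 1 or 3, Fos-203 was no longer called for its difference from the gene, with a limma adjusted p of up to 0.0622. Nr4a1, the gene of an immediate early orphan nuclear receptor, rose by 6.02 and Nr4a1-204 by 3.05. The tested difference from the gene was −2.83 ± 0.36 (SE; limma adjusted p = 0.00953). The call of Nr4a1-204 for its difference from the gene was lost without APAP replicates 1 or 3 (limma adjusted p up to 0.0552). Nr4a1-204 lost the call for its level without control replicates 2 or 3 or APAP replicates 1 or 3, with a limma adjusted p of up to 0.0625.

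Among metabolic genes, Etnppl-205, from the gene of a phospho-lyase that breaks down phosphoethanolamine, had 7.94, 10.6 and 4.9 FPKM in the controls, 1.06, 1.99 and 0.725 FPKM after APAP and 2.01, 2.85 and 2.22 FPKM after dmPGE2 and APAP. All treated livers were below the controls, and the gene, at 47.4, 71.2 and 22.8 FPKM in the controls, 28.3, 46.8 and 28.8 FPKM after APAP and 47.9, 47 and 38.6 FPKM after dmPGE2 and APAP, overlapped between the groups. The difference from the gene was −2.24 ± 0.27 (SE; limma adjusted p = 0.00755), held in every exclusion. Gls2-206, from the liver glutaminase gene, had 2.08, 2.01 and 1.37 FPKM in the controls, 0.190, 0.476 and 0.199 FPKM after APAP and 0.918, 0.817 and 1.06 FPKM after dmPGE2 and APAP, and fell by 2.37 beside −0.15 for the gene. The tested difference from the gene was −2.07 ± 0.29 (SE; limma adjusted p = 0.0177). Like Clcn3-209 below, this isoform lay under 1 FPKM in every APAP liver, so the level rule favoured its loss of share. Gls2-206 was no longer called for its difference from the gene without control replicates 1 or 2 or APAP replicates 1 or 3 (limma adjusted p up to 0.0736). Clcn3-209 differed from its gene by −3.94 ± 0.52 (SE; limma adjusted p = 0.0133). Without control replicate 1 or APAP replicates 1 or 2, Clcn3-209 was no longer called for its difference from the gene, with a limma adjusted p of up to 0.0581. Cyp2e1-204, from the main P450 of APAP oxidation, and Pck1-204, from the gluconeogenic carboxykinase gene, differed from their genes by −1.64 ± 0.28 (SE; limma adjusted p = 0.0454) and −2.35 ± 0.41 (SE; limma adjusted p = 0.0454). The call of Cyp2e1-204 for its difference from the gene was lost without control replicates 1, 2 or 3, APAP replicates 1 or 2 or dmPGE2+APAP replicates 1, 2 or 3 (limma adjusted p up to 0.142). Pck1-204 lost the call for its difference from the gene without control replicates 1, 2 or 3, APAP replicates 1, 2 or 3 or dmPGE2+APAP replicates 2 or 3, with a limma adjusted p of up to 0.144. The other 2 members of Pck1, Pck1-202 and Pck1-203, were not called, with −0.16 and −0.96.

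By function, the members were counted in lists of genes chosen with earlier results of these data known. Members from genes of RNA processing were higher where they were called, as were 266 of the 330 called members of any gene. Among the other splicing and RNA-binding proteins 14 of 62 members rose and 0 fell, with a median log2 difference of 0.80 beside 0.31 for their genes. For hnRNPs, the abundant proteins that coat precursor RNA, it was 4 of 36 (0.73 and 0.43), for SR splicing factors 2 of 17 (0.70 and 0.51), and for the CLK and SRPK kinases that phosphorylate SR proteins 1 of 12 (0.55 and 0.78). In each such pair the former median runs over members and the latter over distinct genes, each with its own fit's rescaling. The members' median difference from their own gene was 0.44, 0.40, 0.15 and 0.03 in these lists, in the order given. None of the 5 members from nonsense-mediated decay factors was called, with a median of 0.73. Over all members 8.15% rose and the median was 0.17. Of these lists, only the other splicing and RNA-binding proteins had a share of risen members well above this, which was not tested. Clk4-210, the called kinase member, had 0.452, 0.565 and 0.384 FPKM in the controls, 2.43, 1.78 and 2.5 FPKM after APAP and 1.83, 2.64 and 2.45 FPKM after dmPGE2 and APAP. The controls lay below every treated liver, with 2.01 ± 0.26 (SE; limma adjusted p = 0.00605) and 1.19 for the gene, and no exclusion ended the call. Clk4-210 reached 1 FPKM in treated livers only, so the level rule favoured its rise and the p-value is no independent support. The 5 members of Clk1, an autoregulated splicing kinase, had differences of 0.95, 1.0, 1.03, 0.64 and 1.08 (Clk1-202, Clk1-203, Clk1-204, Clk1-208 and Clk1-212), and none was called although the gene rose by 1.06. Srsf5-206, Srsf5-209 and Srsf5-211 were not called either, with −0.26, 0.85 and 0.77 beside a gene that rose by 0.58. Among the RNA-processing lists 1 member had a called gain over its gene: Sf3b1-206, from a core subunit of the spliceosome, with 3.39 ± 0.50 (SE; limma adjusted p = 0.0197). Sf3b1-206 was no longer called for its difference from the gene without APAP replicates 1, 2 or 3 (limma adjusted p up to 0.091).

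Members from stress genes were called mostly in the p53, immediate early and NRF2 lists. Over all members 8.15% rose, and of all transcripts tested 2.73% did. Isoforms of the same gene count separately here. The members came from 7 p53 target genes, 5 immediate early genes and 8 NRF2 and glutathione genes. Of 13 members from p53 target genes 8 rose (7 of 12 without Mdm2-203, which reached the level in the APAP livers alone), with a median of 1.73 beside 2.14 for their genes, and of 6 from immediate early genes 4 rose (2.69 and 3.36). Of 15 from NRF2 and glutathione genes 7 rose, and here the members' median of 1.45 stood beside 0.23 for their genes. The median difference of these members from their own gene was 1.11. Sqstm1-207, from the gene of the autophagy receptor p62, had 2.02, 2.11 and 1.75 FPKM in the controls, 13.4, 11.3 and 11.5 FPKM after APAP and 10.6, 8.77 and 6.18 FPKM after dmPGE2 and APAP. All treated livers exceeded the controls. Its difference was 2.53 ± 0.26 (SE; limma adjusted p = 0.00246), and its gene's 1.57, with the call held in every exclusion. The proteasome and ubiquitin list, which shares Sqstm1 with it, had 4 of 22 higher (0.60 and 0.02), and the heat shock list 3 of 16 (1.15 and 0.82). In the integrated stress response, 1 of 2 rose: Psat1-204, from a serine-synthesis gene, rose by 3.3 with its gene's 3.38. Without APAP replicate 1, Psat1-204 was no longer called for its level, with a limma adjusted p of up to 0.0586. The O-GlcNAc and polyamine enzymes had 3 of 10 higher (0.81 and 0.41). Among them Mat2a, the S-adenosylmethionine synthetase gene, had Mat2a-207 and Mat2a-210 higher by 2.44 and 2.35, and Mat2a-205 at 1.03 without a call. The call of Mat2a-207 for its level was lost without control replicates 1 or 2 or APAP replicates 1 or 3 (limma adjusted p up to 0.0607). Mat2a-210 lost the call for its level without control replicates 1 or 2 or APAP replicates 1 or 3, with a limma adjusted p of up to 0.0651.

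Lists of hepatocyte function had few called members in number. Over all members 8.15% rose and 1.96% fell, and of all transcripts tested 2.73% rose and 0.931% fell. Among P450 and phase II enzymes 0 rose and 2 of 21 fell, and among urea cycle and amino acid enzymes 0 rose and 1 of 32 fell, with a median of −0.54 beside −0.05 for their genes. Of 17 plasma protein members that reached the level in at least 2 groups 1 rose and 1 fell, and 2 others, F2-203 and Vtn-203, reached it in the controls only and had to be lower elsewhere. The member that fell, Apoc1-203 from an apolipoprotein gene, had 7.99, 7.99 and 3.4 FPKM in the controls, 0.605, 1.41 and 1.9 FPKM after APAP and 0.857, 0.542 and 0.694 FPKM after dmPGE2 and APAP, with the controls highest and a difference of −2.27 ± 0.45 (SE; limma adjusted p = 0.0275). Apoc1-203 was no longer called for its level without control replicates 1 or 2 or APAP replicates 1, 2 or 3 (limma adjusted p up to 0.0912).

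The remaining lists had between 0 and 3 called members each, where 8.15% of all members rose and 1.96% fell (2.73% and 0.931% of all transcripts tested). Of 24 from fatty acid and glucose metabolism 2 rose and 1 fell (−0.08 and 0.26), and 1 of the 2, Pdk4-202, reached the level in the APAP livers alone. Bile acid and cholesterol genes had 0 of 14 called in either direction. Of 11 clock members 3 fell, a larger share than over all members, which was not tested. Tef-203, from a clock-output factor related to Dbp, had 5.28, 6.58 and 7.29 FPKM in the controls, 1.46, 2.12 and 1.95 FPKM after APAP and 1.38, 2.49 and 2.09 FPKM after dmPGE2 and APAP, and fell by 1.77 beside its gene's 1.08. Without control replicate 2 or APAP replicates 1 or 3, Tef-203 was no longer called for its level, with a limma adjusted p of up to 0.0606. Of 48 members from cytosolic ribosomal protein genes 1 rose (0.21 and 0.11), and of 15 from aminoacyl-tRNA synthetase genes 2 rose (−0.02 and 0.03). Ribosomal protein genes have many processed copies, so their reads are uncertain. The single ribosomal call was Rps2-202, with 2.58 ± 0.57 (SE; limma adjusted p = 0.0401). The call of Rps2-202 for its level was lost without control replicates 2 or 3, APAP replicates 1, 2 or 3 or dmPGE2+APAP replicates 1, 2 or 3 (limma adjusted p up to 0.117).

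**Figure D4:**
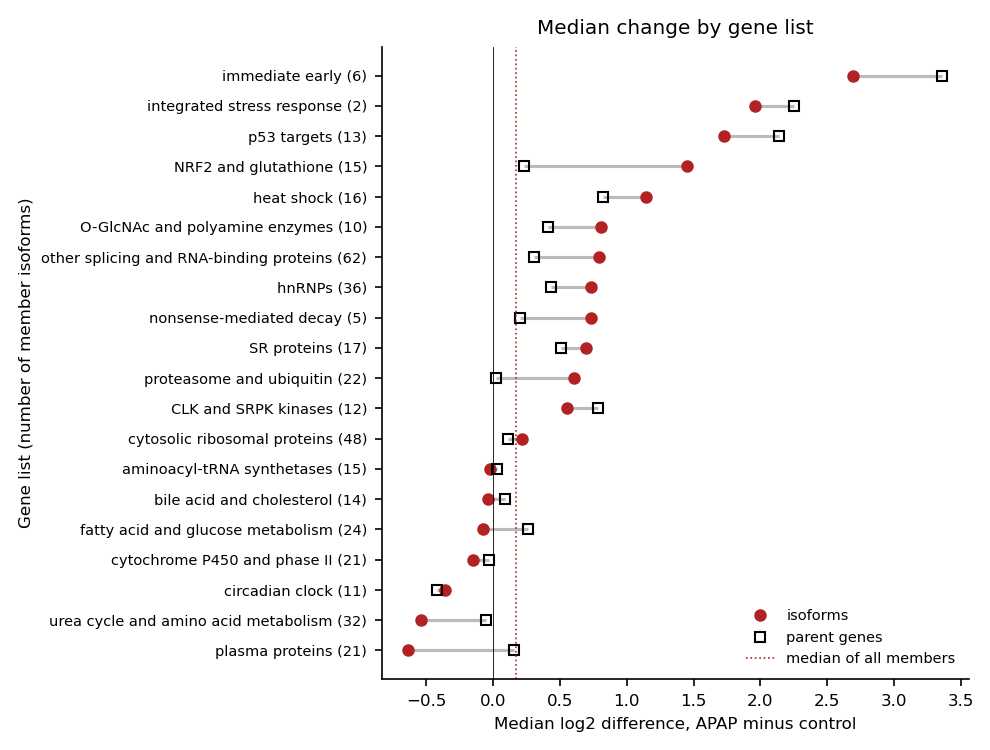
Median log2 difference, APAP against control, over the members (isoforms) and over their distinct parent genes in each of 20 gene lists, each with its own fit's rescaling. The dotted line is the median of all members (0.17); isoform medians lie above those of the genes for NRF2 and glutathione (1.45 and 0.23) and proteasome (0.60 and 0.02) and below them for urea cycle and amino acid enzymes (−0.54 and −0.05).

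Structure was set beside the calls for the 2442 retained-intron members. Of 203 that rose after APAP, 65 (32.0%) hold a whole intron and 120 (59.1%) end inside one. Among the 2192 not called these were 803 (36.6%) and 947 (43.2%). Among the 47 that fell, which include members that reached the level in the controls alone, they were 10 (21.3%) and 30 (63.8%). Ending inside an intron was thus more frequent among both risen and fallen members than among those not called. An isoform that ends inside an intron shares its intronic sequence with the unspliced precursor, and whether that bears on the levels was not tested. By class, 203 rose and 47 fell of 2442 retained-intron members, and 63 rose and 17 fell of 819 processed transcripts.

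dmPGE2 before APAP was compared with APAP alone to ask what the prostaglandin analogue altered. No isoform passed the test. In limma 0 of 3265 members were called, as were 0% of all 22984 transcripts, while 258 members had an unadjusted p under 0.05 (7.9%, against 6.62% of all transcripts). For the difference from the parent the count was also 0 (0% of all tested), with 202 members under an unadjusted 0.05 where 5.93% of all transcripts were. Of the 2205 parents 0 were called (0% of all genes tested), with 200 under an unadjusted 0.05, against 9.32% of all genes. Leaving out 1 library at a time gave between 0 and 3 called members, with 3 without dmPGE2+APAP replicate 1. The members with the lowest p show the size of the differences that remained uncalled. Myl12a-203, from a myosin regulatory light-chain gene, had 2.8, 1.52 and 1.64 FPKM in the controls, 11.5, 7.98 and 11.7 FPKM after APAP and 2.56, 2.2 and 1.96 FPKM after dmPGE2 and APAP. The livers given dmPGE2 lay below those given APAP alone, with −2.08 ± 0.29 (SE; limma adjusted p = 0.125). Naa30-204, from an N-terminal acetyltransferase gene, had 0.523, 0.336 and 1.58 FPKM in the controls, 4.52, 8.06 and 8.29 FPKM after APAP and 0.699, 0.781 and 0.473 FPKM after dmPGE2 and APAP, and again these groups did not overlap (−3.14 ± 0.48 SE, limma adjusted p = 0.14). Asl-208, from the urea-cycle argininosuccinate lyase gene, had 4.66, 4.97 and 3.53 FPKM in the controls, 1.35, 2.47 and 0.943 FPKM after APAP and 5.53, 7.98 and 8.05 FPKM after dmPGE2 and APAP, with the dmPGE2 livers higher (2.26 ± 0.38 SE, limma adjusted p = 0.195).

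For the share of the gene, Alas1-209 had the lowest p. Alas1 encodes the rate-limiting enzyme of heme synthesis in liver, and Alas1-209 keeps the 297-base intron shown above. It had 28.3, 21 and 19.2 FPKM in the controls, 32.2, 30.5 and 12.9 FPKM after APAP and 7.03, 8.01 and 7.97 FPKM after dmPGE2 and APAP, and its share was 14.8, 9.56 and 12.9% in the controls, 35.2, 33.2 and 18.4% after APAP and 7.21, 7.07 and 8.0% after dmPGE2 and APAP. The APAP livers had the largest shares, and the dmPGE2+APAP group differed from them by −1.9 ± 0.27 (SE; limma adjusted p = 0.232). Rps2-204, an isoform of a small-subunit ribosomal protein gene that keeps a 237-base intron, had a share of 2.53, 2.64 and 2.9% in the controls, 2.34, 2.0 and 2.92% after APAP and 5.26, 5.48 and 6.13% after dmPGE2 and APAP. The livers given dmPGE2 were above all others, with 1.22 ± 0.20 (SE; limma adjusted p = 0.3) against APAP. Clcn3-209, described above, was higher again in 2 of the 3 livers given dmPGE2, with a difference from the gene of 3.09 ± 0.52 (SE; limma adjusted p = 0.3). None of these 3 differences passed the test.

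Set against saline, the livers given dmPGE2 before APAP had isoforms of Arid5a and Smarca5 at levels above the controls. Both isoforms reached 1 FPKM in treated livers only, so the level rule favoured this and it is a description. There were 197 called members, 156 higher and 41 lower (152 and 18 without the members that reached the level in 1 group alone). That is 4.78% and 1.26% of members, where 1.26% of all transcripts were higher, 0.531% lower and 1.79% either. Other transcripts that met the same level rule had shares close to the members': of 421, 17 (4.04%) were higher and 6 (1.43%) lower. The difference from the parent was called for 46, 30 higher and 16 lower (29 and 9 without the members of 1 group alone). That is 0.919% and 0.49% of members, against 0.197% and 0.181% (0.378% either) of all tested, which include lower levels. Median centring gave 19 higher and 20 lower. Of the parents 350 were called, 252 higher and 98 lower, against 8.62% and 7.72% (16.3% either) of all genes, and without rescaling 175 were higher and 237 lower. This comparison shares its controls with APAP against control, so the values of named members are only set side by side. For Smarca5-202 the isoform differences were 4.03 after APAP and 3.93 after dmPGE2 and APAP. They were 4.7 and 5.15 for Arid5a-206, and −3.07 and −1.95 for Dbp-205. For Clcn3-209 they were −4.23 and −1.08.

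Single livers of 1 group could differ widely in an isoform while their gene differed by a smaller fold. A spread of 8-fold or more between the lowest and the highest of 3 livers was seen in 233 members in the control group, 227 in the APAP group and 196 in the dmPGE2+APAP group, and in 427 members (13.1%) in at least 1 group. Of the 2205 parent genes it was seen in 11 (0.499%) in any group. Serpinc1-206, from the antithrombin gene, had 15.8, 16.9 and 250.5 FPKM in the livers given dmPGE2 and APAP, where the gene had 331, 341 and 516 FPKM. Vtn-202, from the vitronectin gene, had 5.36, 5.20 and 188 FPKM in the controls and 148, 5.95 and 5.22 FPKM after APAP. Gpt-204, from the alanine aminotransferase gene, had 16.9, 19.0 and 0 FPKM in the controls and 0, 14.3 and 14.1 FPKM after dmPGE2 and APAP, with 15.4 to 17.5 FPKM after APAP. Such livers were not the same ones from isoform to isoform in these examples, which were chosen for their spread after the values were seen.

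**Figure D5:**
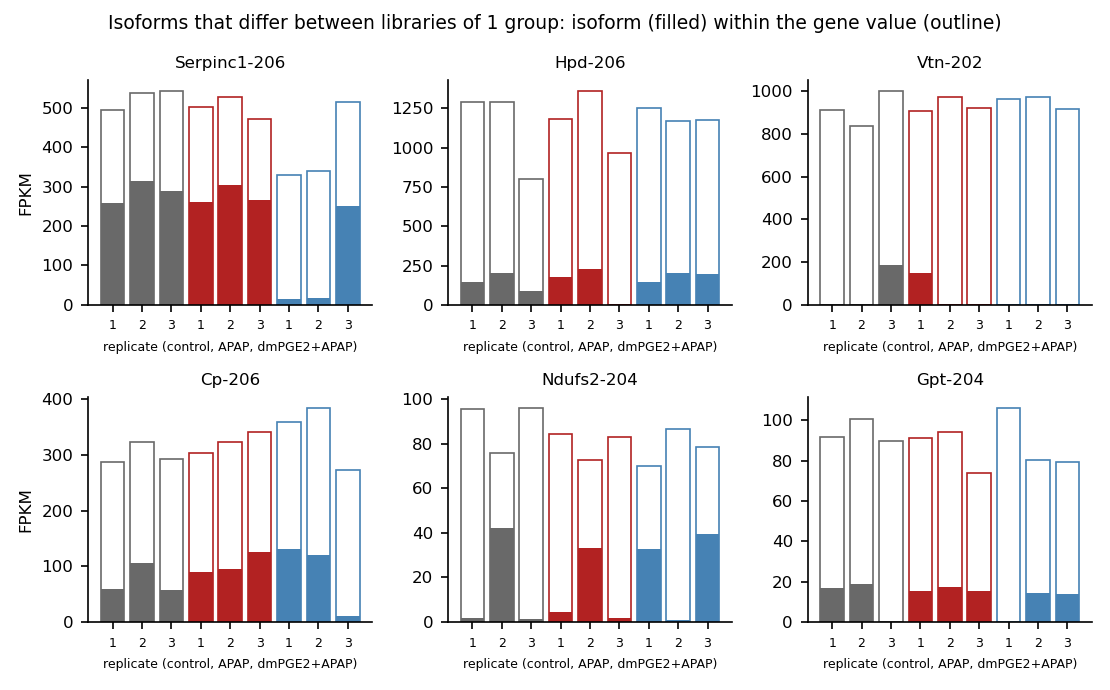
FPKM of 6 isoforms (filled bars) within their gene (outlined bars) in each of the 9 livers. The filled bar changes several-fold between livers of 1 group, as for Serpinc1-206 at 15.8, 16.9 and 250.5 FPKM after dmPGE2 and APAP, while the outlined bars stay within a narrower range.

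Some members passed the level rule through 1 group alone and therefore had to differ between groups. There were 94: 57 at 1 FPKM or more in the controls only, 29 after APAP only and 8 after dmPGE2 and APAP only. Their values are a description. Inmt-202, from an indole N-methyltransferase gene, had 8.68, 9.18 and 9.65 FPKM in the controls, 0.174, 0.601 and 0.970 FPKM after APAP and 0.354, 0.933 and 0.767 FPKM after dmPGE2 and APAP, and Gsta3-204, from a glutathione S-transferase gene with near-identical relatives, had 3.75, 4.12 and 4.91 FPKM in the controls, 0.413, 0.431 and 0.481 FPKM after APAP and 0.219, 0.175 and 0.271 FPKM after dmPGE2 and APAP. Clip1-206, from a microtubule-tip protein gene, had 5.34, 6.07 and 4.18 FPKM in the controls, 0.291, 0.243 and 0.610 FPKM after APAP and 0.675, 0.348 and 0.742 FPKM after dmPGE2 and APAP. Eif4a1-210, from a translation-initiation helicase gene, was high after APAP only, with 0.298, 0.460 and 0.390 FPKM in the controls, 34, 6.55 and 1.87 FPKM after APAP and 0.915, 0.583 and 0.322 FPKM after dmPGE2 and APAP. Pdk4-202, from the pyruvate dehydrogenase kinase gene, also belongs here with 0.101, 0.177 and 0.0780 FPKM in the controls, 1.01, 1.17 and 1.33 FPKM after APAP and 0.0950, 0.596 and 0.488 FPKM after dmPGE2 and APAP, while its gene rose by 5.45. At the edge of the rule, the third-highest library stood at 1.000008 FPKM for Atg12-203 and 1.000476 FPKM for Vegfa-209, just inside, and at 0.999938 FPKM for Hnrnph1-218 and 0.999478 FPKM for Phf20l1-204, just outside.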

How the data were processed

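Total RNA depleted of ribosomal RNA was sequenced from 9 mouse livers, 3 per group. HISAT2 and the genome build GRCm38 (mm10) are named per the submitters' processing notes. The quantifier, its version, its annotation and its use of strand are not given in the sources used here. The authors deposited FPKM per transcript and per gene. The tables that the authors deposited as read counts hold a score, a multiple of FPKM and the length spanned, and were not used as counts, so depth is unknown and no counting interval is given. No other sample column was left unused (0).

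FPKM values were divided by a library factor (a trimmed mean of log ratios, 30% by ratio and 5% by abundance), and 0.1 was added before log2. The factor came from transcripts and genes together for the isoforms, and from the genes alone for the parent genes. Transcripts needed 0.1 FPKM, and genes 0.5 FPKM, in at least 3 libraries. The main test was limma 3.58.1 in R 4.3.3, two-sided, over all 9 libraries with an abundance trend and 6 residual degrees of freedom, with Benjamini-Hochberg adjustment and calls at an adjusted p of 0.05. The isoform's difference from its gene is log2 isoform minus log2 gene within each library, both divided by the isoform fit's factor. It need not equal the gap between the isoform's and the gene's own differences. The code was tested on simulated data.

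Members and gene lists were chosen with earlier results of these data known. Isoforms were named, 1 per gene and with 1 FPKM in at least 2 groups, as the 6 largest called rises and falls and the 6 largest called differences from the gene in each direction, as opposite calls, or as the 3 lowest p where nothing passed. To these were added the 8 highest means, 2 to 4 per list, and 4 isoforms that reached the level in 1 group. Intron positions, sequences and classes come from GENCODE M21. Alternatives were other pseudocounts, filters and scalings, a replicate block, no abundance trend, fits of only the groups compared, and single-library exclusions. The result of 1 named isoform is not reported here.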

Additional observations from a re-analysis of the deposited data

How the results depend on the processing

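Counts of calls moved with the libraries included and with some settings. In APAP against control the isoform calls were 330 and fell to between 76 and 325 when 1 library was left out, the differences from the gene were 54 and ranged from 20 to 72, and the parent genes were 457 and ranged from 315 to 458. In dmPGE2+APAP against APAP the ranges were 0 to 3, 0 to 2 and 0 to 12, where all libraries gave 0. In dmPGE2+APAP against control they were 52 to 156, under the 197 of all libraries, 17 to 44, under 46, and 212 to 354, where all libraries gave 350. A stricter filter on low values raised the isoform calls to 506 (APAP against control) and 401 (dmPGE2+APAP against control), and the differences from the gene to 166 and 116, with fewer transcripts tested. A pseudocount of 0.5 gave 133 and 87 differences, and one of 0.01 gave 26 in dmPGE2+APAP against control. There, leaving out the abundance trend gave 21 and fitting only the 2 groups compared gave 23. Fitting only these groups also gave 107 isoform calls in that comparison, and 1 parent gene in dmPGE2+APAP against APAP. With the rest of the gene in place of the whole gene, an alternative chosen after seeing the data, 26 differences were called in dmPGE2+APAP against control. Except for the filter and the groups fitted, the cause was not tested.

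The labels number the replicates 1 to 3 in each group without saying what a number shares. Livers with the same number did not deviate together, with correlations of −0.117 to 0.072 over the 3 fits, and not every liver correlated best with its own number, so the numbers were not taken as pairs. With the replicate block, which uses up degrees of freedom, the isoform calls were 211 and 64 in APAP and in dmPGE2+APAP against control, and the differences from the gene were 22 (10 higher and 12 lower) and 13.

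The alternatives followed the named isoforms that were called, and those with the lowest p in dmPGE2+APAP against APAP. None of these changed direction under any alternative, and the other named isoforms were not followed. Of the values of the isoforms followed, 1737 stayed on their side of the threshold, 422 fell short of it and 2 newly passed. The depth behind each level is unknown, so counting error cannot be separated from the spread between livers.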
